A study of Arabidopsis thaliana with 47 samples.

Results

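Of the 33602 genes with a TPM value in these Arabidopsis thaliana libraries, 33 (0.0982%) were silent in wild type (WT) and on in every RNA-seq library labelled nrpe1, without being on in every library labelled hex. TPM scales the reads of a gene by its length and by the whole library. A gene was taken where it had at least 0.5 TPM in all 3 libraries labelled nrpe1, below 0.5 TPM in at least 1 of the 3 libraries labelled hex and at most 0.2 TPM in all 3 WT libraries. 8 further genes had been set aside by name, and 0 of them met these limits. In all, 13605 genes were silent in WT by this limit, 41 of them were on in all libraries labelled nrpe1, and the 33 genes are the 41 without the 8 that were also on in all libraries labelled hex. The genes were chosen by these TPM values, so their RNA levels in the 3 groups are a description and carry no test. The number of genes moved with 1 library left out, with 85 genes without the library labelled nrpe1 replicate 1, 60 without nrpe1 replicate 3 and 55 without WT replicate 3. The limits must hold in every library labelled nrpe1 and in every WT library, so leaving 1 of these out could only keep or raise the number.

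RNA-directed DNA methylation (RdDM) is the plant pathway that directs cytosine methylation to transposons and other repeats. RNA polymerase IV starts small interfering RNA production, and RNA polymerase V, whose largest subunit is NRPE1, makes scaffold transcripts at which the methyltransferase DRM2 is brought to the DNA. MORC proteins are ATPases that compact chromatin and help keep methylated sequences silent. Loss of such silencing is commonly seen as RNA from pseudogenes and transposon remnants in the gene-poor chromatin around the centromeres.

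The RNA-seq libraries were labelled nrpe1 (the nrpe1-11 insertion mutant), hex (the sextuple mutant morc1-2 morc2-1 morc4-1 morc5-1 morc6-3 morc7-1) and WT, each with 3 libraries. The 22 ChIP-seq peak lists were from plants carrying MORC7-FLAG (under its own promoter, from a line in morc7) in RdDM mutants or met1 (nrpd1 with 2 libraries, nrpe1 with 2, the nrpd1 nrpe1 double mutant with 2, dms3 with 3 and met1 with 1), MORC7-FLAG in morc7 with no further mutation (3), MORC4-FLAG under its own promoter in morc4 (2), WT without a tag (2), plants with both MORC7-FLAG and the zinc finger fusion ZF-DMS3-HA (1 FLAG and 1 HA list), MORC7-FLAG plants with HA antibody (1), and RNA polymerase II in hex (1) and WT (1). The RdDM mutants that carried MORC7-FLAG were progeny of crosses, homozygous for the mutation and with 1 or 2 copies of the transgene locus. Whether these or the met1 plants kept the morc7 mutation is not stated in the study's methods. Plants were labelled as floral tissue of 5 to 6 weeks, whereas the study's methods give floral tissue of younger seedlings for RNA-seq.

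The libraries did not all match their labels. MORC1 had 2.06, 2.04 and 1.77 TPM in the libraries labelled nrpe1, 9.17, 8.31 and 7.70 TPM in those labelled hex and 7.99, 7.42 and 8.08 TPM in WT, and MORC2, MORC6 and MORC7 were likewise low only in the libraries labelled nrpe1. MORC4 was high there, with a mean of 13.0 TPM against 4.97 TPM in WT. NRPE1 had 0.62, 0.51 and 0.50 TPM in the libraries labelled hex, against 1.74, 1.27 and 1.73 TPM in WT, and 1.73, 1.08 and 1.43 TPM in those labelled nrpe1 overlapped WT. The mutated genes thus went against both labels, no library was regrouped, and every direction below refers to the label. Of the 6 flower identity genes, AP1 (at most 0.04 TPM) and LFY (0 TPM) were at or near 0 in all 9 libraries, and AP3 and PI did not pass 0.32 and 0.39 TPM, whereas AG had 0.98 to 2.11 TPM and SEP3 0.18 to 1.33 TPM over the 9 libraries. So 4 of the 6 defining markers of the labelled tissue were at or near 0 and 2 were detected at low levels. 6 pollen genes summed to 44.0 TPM in the library labelled nrpe1 replicate 3, against 0.37 and 0.79 TPM in the other 2 and at most 0.94 TPM in the 6 others. VGD1 (29.2 TPM) and VGDH1 (13.6 TPM) made up most of the sum in nrpe1 replicate 3. ACA9 had 1.14 TPM there, MGH3 0.08 TPM, and GCS1 and DUO1 0 TPM. The defence gene PR1 had 4.44, 9.84 and 0.06 TPM in the libraries labelled nrpe1, 0.06, 0 and 11.9 TPM in those labelled hex and 0 TPM in all WT libraries. Labels name the 3 libraries of a group as replicates without saying whether they were separate plantings. Depth is unknown for every library, since the files hold no read totals.

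The 33 genes were mostly pseudogenes. Of the 32 with a position in the RefSeq annotation of TAIR10.1, 23 (71.9%) were annotated as pseudogenes and 9 (28.1%) as protein-coding genes. AT5G28070, the remaining gene, had no entry there and so no class or position. Of 32823 positioned genes in the tables, 11.9% were pseudogenes and 81.3% protein-coding, and of the 13072 positioned genes silent in WT, 28.7% were pseudogenes and 59.3% protein-coding. Of the 35 genes silent in WT and on in all libraries labelled hex, 17 (48.6%) were pseudogenes and 14 (40%) protein-coding. The member pseudogenes are all listed with the product uncharacterized protein.

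They lay on every chromosome and mostly in gene-poor stretches, 8 on chromosome 1, 4 on chromosome 2, 8 on chromosome 3, 9 on chromosome 4 and 3 on chromosome 5. A median of 42.5 protein-coding genes lay within 250 kb of a member, with a range of 5 to 146, against a median of 132 for all positioned genes, 121 for genes silent in WT and 100 for those on in all libraries labelled hex. Pseudogenes as a class sat in such places, with a median of 33, and the 23 pseudogenes among the members had a median of 42. The 9 protein-coding members had a median of 63. Near the median of all genes were AT4G00700 (146), BCAT-2 (142), AT3G47270 (129), AT4G01980 (125) and WAK3 (125).

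**Figure D1:**
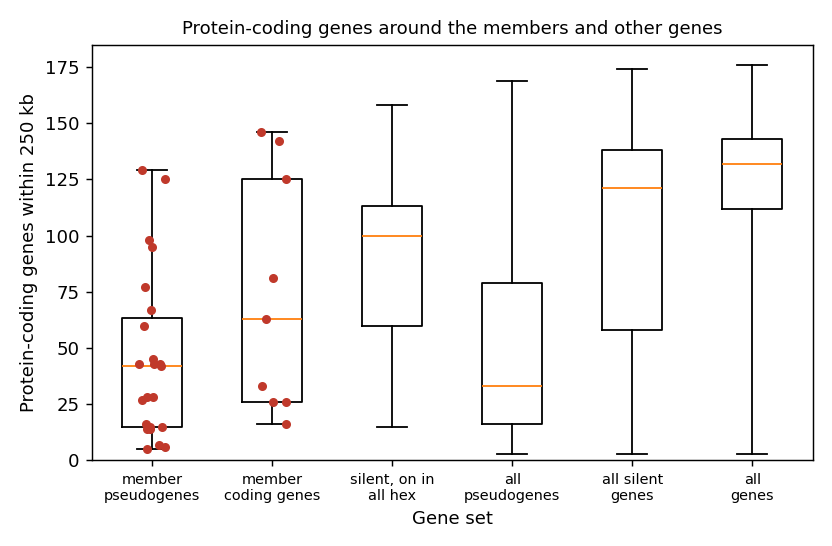
Number of protein-coding genes within 250 kb (y axis) of the member pseudogenes, the member protein-coding genes, genes silent in WT and on in all libraries labelled hex, all pseudogenes, all genes silent in WT and all positioned genes (x axis). Boxes show the quartiles with the median as a line, whiskers the lowest and highest gene, and points the single members. The median was 42 for the member pseudogenes and 132 for all genes.

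12 of the members stood in 4 runs in which each neighbour was within 10 kb of the next. The longest, at chr3:12593810-12619019 (25.2 kb), held ABCG38 and the pseudogenes AT3G30844, AT3G30843 and AT3G30846, all on the reverse strand. A second run of 4 pseudogenes, AT4G04270, AT4G04273, AT4G04276 and AT4G04280, spanned chr4:2057806-2068548 (10.7 kb) and used both strands. The other 2 were the pseudogene pair AT3G42716 and AT3G42719, at chr3:14799890-14804201, and the protein-coding pair AT1G36920 and AT1G36922, at chr1:13982995-13985480. Members of a run share flanking sequence and in some cases a ChIP peak, so they are not independent of each other.

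Many of the members had similar copies elsewhere in the genome. In a blastn search of the genome with the whole gene, 21 of the 32 positioned members had at least 1 other locus with at least 80% identity over at least 50% of the length, and 20 of those 21 were pseudogenes. Only members were searched at this limit, so the count has no background share. AT1G40121 had 155 such loci, AT1G41680 had 102 and AT4G06615 had 93. These 3 pseudogenes, on chromosomes 1 and 4, were also similar to each other and to AT3G42719. AT4G06615 and AT1G41680 were 95.9% identical over 1040 aligned bases. A stretch of 120 bases of each, at chr4:3283814-3283933 and chr1:15483023-15483142 on the forward strand, is shown because the closest members differ there by 3 bases, printed in capitals.
AT4G06615: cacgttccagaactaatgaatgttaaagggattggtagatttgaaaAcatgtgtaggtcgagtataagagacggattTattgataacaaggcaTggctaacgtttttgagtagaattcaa
AT1G41680: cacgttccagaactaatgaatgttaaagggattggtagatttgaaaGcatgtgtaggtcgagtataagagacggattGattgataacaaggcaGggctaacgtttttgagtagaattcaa

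The pseudogenes AT3G42716 and AT3G43862 formed a second pair, 86.7% identical over 1746 aligned bases. The stretches below, at chr3:14800099-14800218 on the forward strand and chr3:15716492-15716611 on the reverse strand, show the more distant relation, with 16 differences in 120 bases in capitals.
AT3G42716: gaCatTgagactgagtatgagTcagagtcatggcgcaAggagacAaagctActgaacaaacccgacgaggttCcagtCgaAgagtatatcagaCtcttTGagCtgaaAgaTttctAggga
AT3G43862: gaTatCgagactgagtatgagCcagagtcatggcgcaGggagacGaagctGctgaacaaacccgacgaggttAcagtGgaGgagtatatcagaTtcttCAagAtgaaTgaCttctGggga

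A near-identical copy (at least 95% over at least 50% of the length, by megablast) was found for 10 of the 23 member pseudogenes (43.5%), for 32% of the 3747 pseudogenes silent in WT and for 0 of the 9 protein-coding members. It was found for 31.5% of all pseudogenes and for 2 of the 17 pseudogenes silent in WT and on in all libraries labelled hex (11.8%). Reads of near-identical copies can be shared between genes, and how they were assigned is not given in the sources used here, so the levels of AT4G06615, AT1G41680, AT1G40121 and the other copied pseudogenes are uncertain as to the locus. 3 members overlapped another gene on the same strand (AT4G01980, AT4G04270 and AT4G00700) and 2 on the other strand (BCAT-2 and AT4G08020), and their reads may likewise belong in part to the other gene.

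RNA levels of the members were low in all groups. The median over the 33 of the mean TPM was 1.30 under the label nrpe1, 0.053 under the label hex and 0.0067 in WT. The members summed to 79.3, 93.5 and 86.4 TPM in the libraries labelled nrpe1, to 4.47, 2.90 and 5.93 TPM in those labelled hex and to 0.83, 0.84 and 1.18 TPM in WT. The 3 groups did not overlap in this sum, which the choice of members fixes in part. In bulk tissue, fewer cells of a type and less RNA per cell cannot be told apart. 11 members reached 1 TPM in all 3 libraries labelled nrpe1, and 11 averaged under 1 TPM there. Within the libraries labelled nrpe1, the highest was a median of 1.61 times the lowest (range 1.10 to 5.25), and 18 members were lowest in replicate 1.

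**Figure D2:**
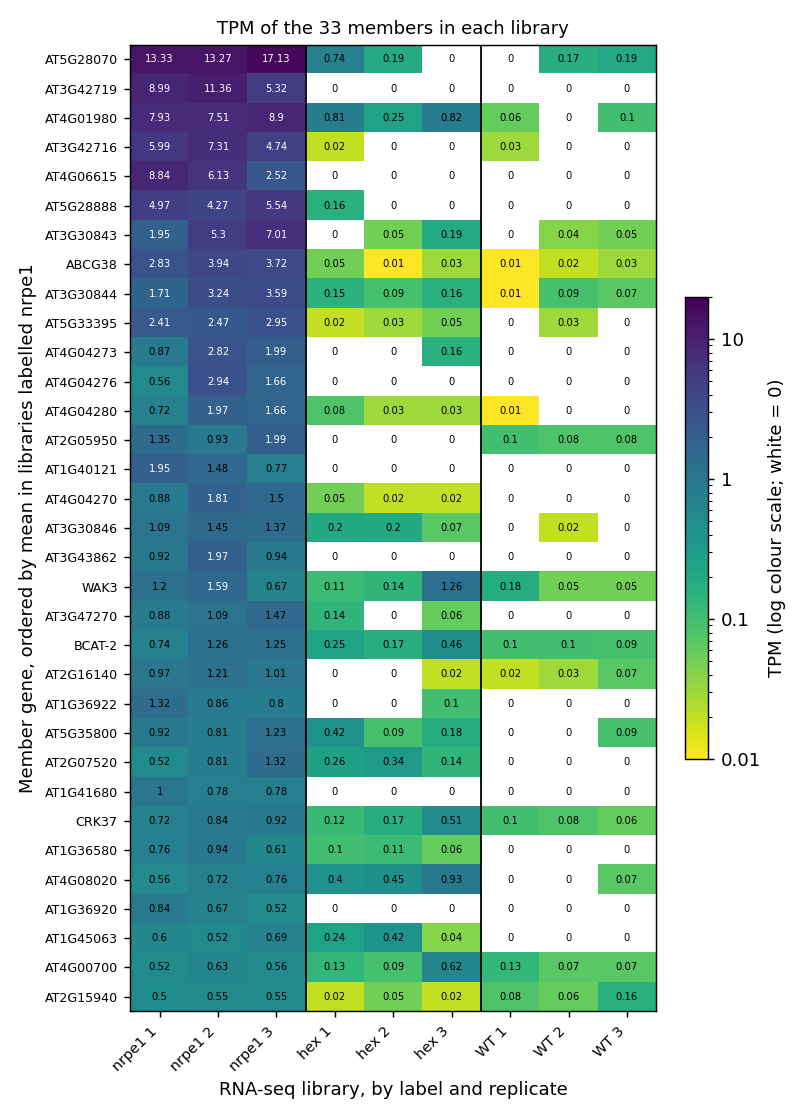
TPM of each member (rows, ordered by the mean over the libraries labelled nrpe1) in each RNA-seq library (columns, by label and replicate). Colour is TPM on a log scale, white is 0 and the printed number is the TPM. AT5G28070 was highest with 13.3 to 17.1 TPM in the libraries labelled nrpe1, and 11 to 14 of the 33 cells are white in each column labelled hex and 19 to 21 in each WT column.

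AT5G28070 had the highest level, with 13.3, 13.3 and 17.1 TPM in the libraries labelled nrpe1, 0.74, 0.19 and 0 TPM in those labelled hex and 0, 0.17 and 0.19 TPM in WT. The pseudogene AT3G42719 had 8.99, 11.4 and 5.32 TPM in the libraries labelled nrpe1 and was listed at 0 in all 6 others. Its neighbour AT3G42716 had 5.99, 7.31 and 4.74 TPM in the libraries labelled nrpe1, 0.02, 0 and 0 TPM in those labelled hex and 0.03, 0 and 0 TPM in WT. In all 3 genes every library labelled nrpe1 lay above all others, which the limits fix against WT and in part against the libraries labelled hex. The 2 neighbours shared the order of their libraries labelled nrpe1, highest in replicate 2 and lowest in replicate 3. AT4G06615 (chr4:3283784-3284823, forward strand), the pseudogene of the repeat family shown above, had 8.84, 6.13 and 2.52 TPM in the libraries labelled nrpe1 and 0 TPM in all 6 others. The pseudogene AT5G28888 (chr5:10902105-10903015, reverse strand) had 4.97, 4.27 and 5.54 TPM in the libraries labelled nrpe1, 0.16, 0 and 0 TPM in those labelled hex and 0 TPM in WT.

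The pseudogene AT4G01980 (chr4:863351-864259, reverse strand) stood out by its level in the libraries labelled hex, the highest mean of any member there. It had 7.93, 7.51 and 8.90 TPM in the libraries labelled nrpe1, 0.81, 0.25 and 0.82 TPM in those labelled hex and 0.06, 0 and 0.10 TPM in WT, with no overlap between any of the groups. In all, 10 members had every library labelled hex above the highest WT library, among them AT2G07520 with 0.26, 0.34 and 0.14 TPM in the libraries labelled hex and 0 TPM in WT. AT4G04270 was also among them, with only 0.05, 0.02 and 0.02 TPM in the libraries labelled hex and 0 TPM in WT. This count has no share over all genes beside it, and the limit on WT makes it easier to reach, so nothing is read from it.

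The 4 members of the run on chromosome 3 were on in the libraries labelled nrpe1, as the limits require. RNA between the genes was not measured here. ABCG38 (AT3G30842), an ABC transporter of the pleiotropic drug resistance type, had 2.83, 3.94 and 3.72 TPM in the libraries labelled nrpe1, 0.05, 0.01 and 0.03 TPM in those labelled hex and 0.01, 0.02 and 0.03 TPM in WT. AT3G30844 had 1.71, 3.24 and 3.59 TPM and AT3G30843 had 1.95, 5.30 and 7.01 TPM in the libraries labelled nrpe1, and both stayed at or below 0.19 TPM elsewhere. AT3G30846, at the upstream end of the run, had 1.09, 1.45 and 1.37 TPM in the libraries labelled nrpe1, 0.20, 0.20 and 0.07 TPM in those labelled hex and 0, 0.02 and 0 TPM in WT. All 4 genes were lowest in nrpe1 replicate 1. The run on chromosome 4 had the same low library, with 0.88, 1.81 and 1.5 TPM for AT4G04270, 0.87, 2.82 and 1.99 TPM for AT4G04273, 0.56, 2.94 and 1.66 TPM for AT4G04276 and 0.72, 1.97 and 1.66 TPM for AT4G04280 in the libraries labelled nrpe1. These 4 pseudogenes did not pass 0.16 TPM in the libraries labelled hex or 0.01 TPM in WT.

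Among the remaining pseudogenes of the repeat families, AT1G40121 had 1.95, 1.48 and 0.77 TPM, AT3G43862 had 0.92, 1.97 and 0.94 TPM and AT1G41680 had 1.00, 0.78 and 0.78 TPM in the libraries labelled nrpe1, and each was listed at 0 in all libraries labelled hex and in WT. With AT3G42719, AT4G06615, AT4G04276 and AT1G36920, they made up the 7 members at 0 in all 6 of these libraries, whereas 15 members were at 0 in all WT libraries. AT1G36920 and its neighbour AT1G36922, both protein-coding with no known function, had 0.84, 0.67 and 0.52 TPM and 1.32, 0.86 and 0.80 TPM in the libraries labelled nrpe1, again with the same order of libraries in both genes.

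5 protein-coding members with an annotated family, other than ABCG38, had mean levels of 0.23 to 0.50 TPM in the libraries labelled hex. In each the mean lay between WT and the libraries labelled nrpe1 and nearer to WT. The pseudogenes AT2G07520 and AT5G35800 had means of 0.25 and 0.23 TPM there. WAK3 (AT1G21240, chr1:7434235-7436830), a wall-associated receptor kinase, had 1.20, 1.59 and 0.67 TPM in the libraries labelled nrpe1, 0.11, 0.14 and 1.26 TPM in those labelled hex and 0.18, 0.05 and 0.05 TPM in WT. AT4G00700 (chr4:285876-289575), a protein of the C2 calcium and lipid binding family, had 0.52, 0.63 and 0.56 TPM in the libraries labelled nrpe1, 0.13, 0.09 and 0.62 TPM in those labelled hex and 0.13, 0.07 and 0.07 TPM in WT. In both, hex replicate 3 lay within the range of the libraries labelled nrpe1. CRK37 (AT4G04500, chr4:2238370-2240921), a cysteine-rich receptor-like kinase, had 0.72, 0.84 and 0.92 TPM in the libraries labelled nrpe1, 0.12, 0.17 and 0.51 TPM in those labelled hex and 0.10, 0.08 and 0.06 TPM in WT. BCAT-2 (AT1G10070, chr1:3288087-3290471), a branched-chain amino acid aminotransferase, had 0.74, 1.26 and 1.25 TPM in the libraries labelled nrpe1, 0.25, 0.17 and 0.46 TPM in those labelled hex and 0.10, 0.10 and 0.09 TPM in WT. AT1G45063, annotated as a copper ion binding protein, had 0.60, 0.52 and 0.69 TPM in the libraries labelled nrpe1, 0.24, 0.42 and 0.04 TPM in those labelled hex and 0 TPM in WT. WAK3, AT4G00700, CRK37 and BCAT-2, but not AT1G45063, were highest among the libraries labelled hex in replicate 3, the library in which PR1 had 11.9 TPM, and the part of that difference between libraries in these levels was not tested. The pseudogene AT4G08020, with 0.40, 0.45 and 0.93 TPM in the libraries labelled hex against 0.56, 0.72 and 0.76 TPM in those labelled nrpe1, was the only other member with a library labelled hex above its lowest library labelled nrpe1.

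The pseudogene AT5G33395 (chr5:12664506-12666192, forward strand) had 2.41, 2.47 and 2.95 TPM in the libraries labelled nrpe1, 0.02, 0.03 and 0.05 TPM in those labelled hex and 0, 0.03 and 0 TPM in WT. At lower levels, the pseudogenes AT2G05950, AT3G47270, AT2G16140 and AT5G35800 and the protein-coding gene AT1G36580 had 0.61 to 1.99 TPM in the libraries labelled nrpe1, at most 0.42 TPM in those labelled hex and at most 0.10 TPM in WT. In each of these 6 genes the libraries labelled nrpe1 lay above all others, which the limits fix against WT and in part against the libraries labelled hex.

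The limits cut through a continuous range. Just inside the lower limit in the libraries labelled nrpe1 were AT2G15940 (0.50, 0.55 and 0.55 TPM), AT1G36920 (lowest 0.52 TPM) and AT1G45063 (0.60, 0.52 and 0.69 TPM), and just outside were AT1G35735, AT2G12270 and AT4G04130, each with a lowest library of 0.49 TPM. AT5G23020, just above the WT limit with 0.21 TPM in 1 WT library, had 1.42, 7.57 and 45.5 TPM in the libraries labelled nrpe1. Among genes on in all libraries labelled hex, AT5G35425 (0.53, 0.89 and 0.79 TPM), AT2G22710 (1.03, 0.77 and 1.05 TPM) and AT3G33528 (1.22, 0.81 and 3.41 TPM) lay nearest the limit there. AT3G33528 had 11.97, 8.77 and 7.83 TPM in the libraries labelled nrpe1, a level near that of AT3G42719, so the limit in hex parts genes of like level in the libraries labelled nrpe1.

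In a fit across all genes with limma on log2(TPM + 1), 12 members passed the filter of at least 1 TPM in at least 3 of the 9 libraries. Of these 12, 11 were called higher in the libraries labelled nrpe1 than in WT (adjusted p below 0.05 and at least 2-fold), where 2.31% of the 17459 genes tested were called higher. In the libraries labelled hex against WT, 0 of the 12 were called higher, where 0.235% of the genes were (1 of the 12 had an unadjusted p below 0.05, as did 827 of all genes). In neither comparison was a member called lower, where 1.63% and 0.0859% of the genes were. The rule used these same values, so nothing is read from these counts. WAK3, the exception, was 0.96 ± 0.29 (SE) higher on the log2(TPM + 1) scale in the libraries labelled nrpe1, under the 2-fold limit. Of the 688 calls in nrpe1 against WT, 58.7% were higher, and 45.9% of 606 after quantile normalization. The calls over all genes rested on single libraries. Leaving out any library other than hex replicate 3 moved the 688 calls of nrpe1 against WT by over 1.5 times, to between 32 calls without nrpe1 replicate 2 and 1606 without nrpe1 replicate 1. The 56 calls of hex against WT became 33, 33 and 32 without hex replicates 1, 2 and 3.

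Of 23 genes of the silencing machinery (RdDM, DNA methyltransferases, chromatin factors and the demethylase ROS1), all passed the filter, and 0 were called in the libraries labelled nrpe1 by limma (10 had an unadjusted p below 0.05, as did 7726 of the 17459 genes tested, and 2.31% of all genes were called higher and 1.63% lower), with a median log2 difference from WT of -0.05 on the log2(TPM + 1) scale, against 0.08 over all genes. In the libraries labelled hex 1 was called, lower, where 0.0859% of all genes were, with a median of 0.01, against 0.02 over all genes. That gene was ROS1, which removes DNA methylation and had 0.96, 0.40 and 0.97 TPM in the libraries labelled hex, against 10.6, 7.65 and 8.68 TPM in WT (a log2 difference of -2.50 ± 0.17 (SE), limma adjusted p = 0.00016). In the libraries labelled nrpe1 ROS1 had 12.1, 13.4 and 16.4 TPM. The methyltransferases MET1, CMT2 and CMT3, ROS1 and DDM1, a remodeller needed for DNA methylation, had an adjusted p below 0.05 in the libraries labelled nrpe1 with differences under 2-fold on the log2(TPM + 1) scale, which understates the fold of low genes, such as CMT3 with 3.09, 1.65 and 1.43 TPM against 5.14, 4.11 and 4.42 TPM in WT (a log2 difference of -0.90 ± 0.22 (SE), limma adjusted p = 0.039).

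ChIP peaks were not used to choose the genes. The deposited lists hold peaks of each library separately, although the study's methods describe pooled libraries for peak calling, and only peaks above a 2-fold enrichment with q under 0.01 were kept. A MORC7 region, a merged interval with peaks from at least 2 of the 3 MORC7-FLAG libraries with no further mutation, lay within 1 kb of 18 of the 32 positioned members (56.2%). The background was 25.4% of all positioned genes, 25.5% of genes silent in WT and 33.1% of pseudogenes silent in WT. Of the 35 genes silent in WT and on in all libraries labelled hex, 27 (77.1%) had one. No test was made of these differences. 13 of the 23 member pseudogenes and 5 of the 9 protein-coding members had a region, and 12 of the 21 members with another copy in the genome had one, as did 6 of the 11 without. Members of a run shared regions, ABCG38 with AT3G30844 and AT3G30843 with AT3G30846. With 1 library left out, a region needed peaks of both remaining libraries, so the count could only stay or fall. It was 10 without MORC7-FLAG replicate 3 (14.7% of all genes), 12 without replicate 1 (12.6% of all genes) and 18 without replicate 2 (21.7% of all genes).

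Of the 18 members, 11 had a region over the gene itself, where 15.4% of all positioned genes had one. In the other 7 it lay outside, upstream in 5, at 136 to 587 bp from the gene, and downstream in 2. Regions were 871 to 6825 bp wide. The widest, 6825 bp, covered the whole of AT4G01980, and AT5G28888 lay inside a region of 5955 bp.

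In single MORC7-FLAG libraries with no further mutation, 17, 11 and 19 of the 32 members (53.1%, 34.4% and 59.4%) had a peak within 1 kb in replicates 1, 2 and 3, where 27.3%, 23.4% and 29.2% of all genes did. Of pseudogenes silent in WT, 29.3%, 11% and 47.1% did. Of genes silent in WT and on in all libraries labelled hex, 71.4%, 42.9% and 85.7% did. 10 members had a peak in all 3 and 12 in none. A merged interval with peaks of all 3 lay within 1 kb of 12 members, where 12.3% of all genes had one. One with a peak of at least 1 library lay near 20 members, where 44.4% of all genes had one. The strongest peak of a member had a median fold enrichment of 3.90, 2.94 and 5.68 in the 3 libraries. The fold enrichment is that of each library over its own background and is not scaled between libraries. The peak at AT5G28888 was the strongest among the members in each of the 3, with a fold enrichment of 6.09, 5.09 and 8.41.

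**Figure D3:**
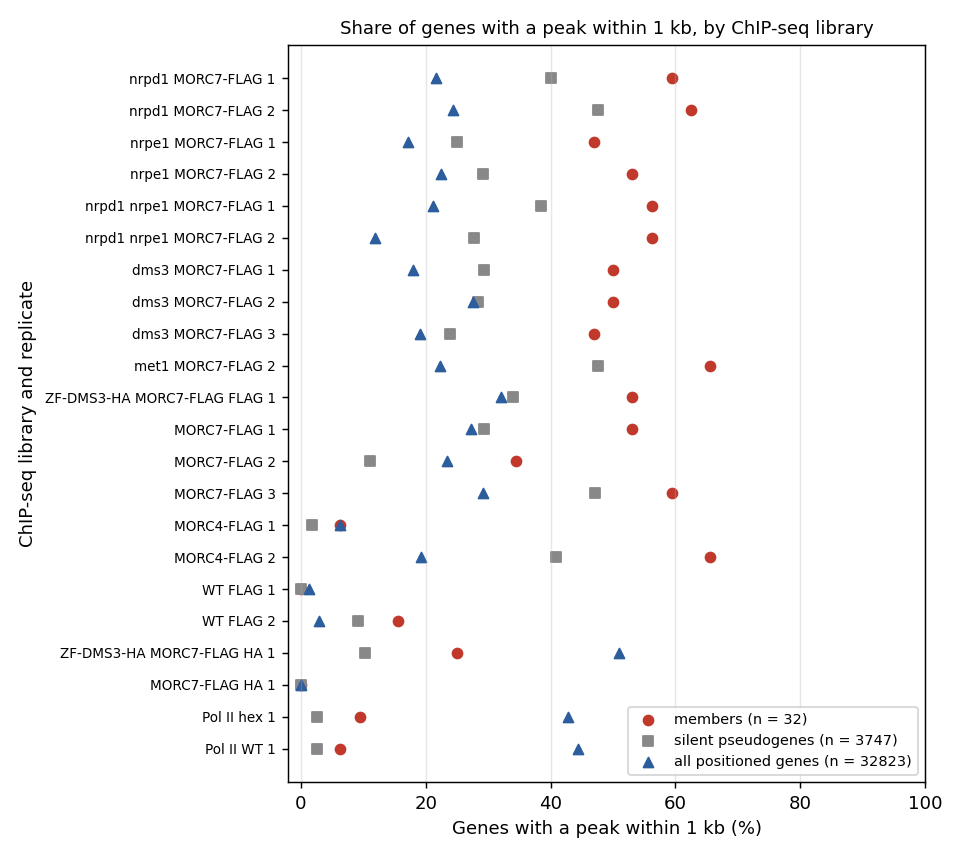
Share of genes with a peak within 1 kb (x axis, percent) in each of the 22 ChIP-seq libraries (y axis). Circles are the 32 positioned members, squares the 3747 pseudogenes silent in WT and triangles all 32823 positioned genes. In FLAG ChIP of plants with MORC7-FLAG members lie at 34.4% to 65.6%, right of all genes. In the Pol II libraries they lie at 9.38% in hex and 6.25% in WT, left of all genes. Pseudogenes silent in WT lie further left there, at 2.56% and 2.64%.

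MORC7 peaks near the members were found in RdDM mutants as well. Without RNA polymerase IV (nrpd1), 19 and 20 members had a MORC7 peak within 1 kb, where 21.7% and 24.3% of all genes did. In nrpe1, which lacks RNA polymerase V, 15 and 17 members had one, where 17.2% and 22.5% of all genes did. In nrpd1 nrpe1 18 and 18 members had one, where 21.1% and 11.9% of all genes did, and in dms3, which lacks a partner of RNA polymerase V, 16, 16 and 15 members, where 18%, 27.5% and 19.1% of all genes did. The 9 mutant libraries, at 15 to 20 members, overlapped the 3 without a further mutation, at 11 to 19. Members lay at 46.9% to 62.5% in these 9 libraries and pseudogenes silent in WT at 23.9% to 47.6%. Genes silent in WT and on in all libraries labelled hex lay higher, at 74.3% to 94.3%. 12 members had a MORC7 peak in all 9 mutant libraries, 7 in 4 to 7 of them, 5 in 1 and 8 in none. All 18 members with a MORC7 region had a peak in both nrpd1 libraries, 14 in both nrpe1 libraries, 16 in both nrpd1 nrpe1 libraries and 13 in all 3 dms3 libraries. Counts over several mutant libraries were made for members only and have no share over all genes beside them. Whether they are particular to the members was not tested.

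AT5G28888 had fold enrichments of 10.6 and 9.55 in the nrpd1 libraries, 19.0 and 6.45 in those of nrpe1, 7.61 and 15.8 in the double mutant and 6.61 to 7.09 in dms3, against the values above with no further mutation. AT3G30843 had fold enrichments of 11.5 and 9.69 in the nrpd1 libraries, 20.7 and 6.57 in those of nrpe1, 8.67 and 17.7 in the double mutant and 6.62 to 7.26 in dms3, against 4.67, 3.26 and 7.16 with no further mutation. In both genes the 2 libraries of nrpe1, and the 2 of the double mutant, differed from each other more than the dms3 libraries did. ABCG38 had 2 peaks within 1 kb in some libraries. The one upstream, which AT3G30844 shares, had fold enrichments of 10.8 and 9.43 in the nrpd1 libraries, against 7.05 in replicate 3 with no further mutation. In the other RdDM mutant libraries and in replicates 1 and 2 this peak was called over AT3G30844, but its edge lay beyond 1 kb of ABCG38. Its fold enrichments were 4.57 to 5.30 in dms3, 6.58 and 5.61 in nrpe1 and 7.64 and 7.05 in nrpd1 nrpe1. In replicates 1 and 2 they were 4.44 and 3.42. The peak at the 3′ end of ABCG38 had fold enrichments of 5.12 and 5.51 in the nrpd1 libraries, 2.55 and 2.59 in those of nrpe1 and 2.35 in dms3 replicate 1, against 4.89, 3.50 and 6.2 with no further mutation. No peak was called within 1 kb of ABCG38 in dms3 replicates 2 and 3 or in nrpd1 nrpe1. CRK37 had a peak on its upstream side in all 9 mutant libraries, with fold enrichments of 5.43 to 10.7, and in replicates 1 and 3 without a further mutation, with 3.90 and 6.03.

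**Figure D4:**
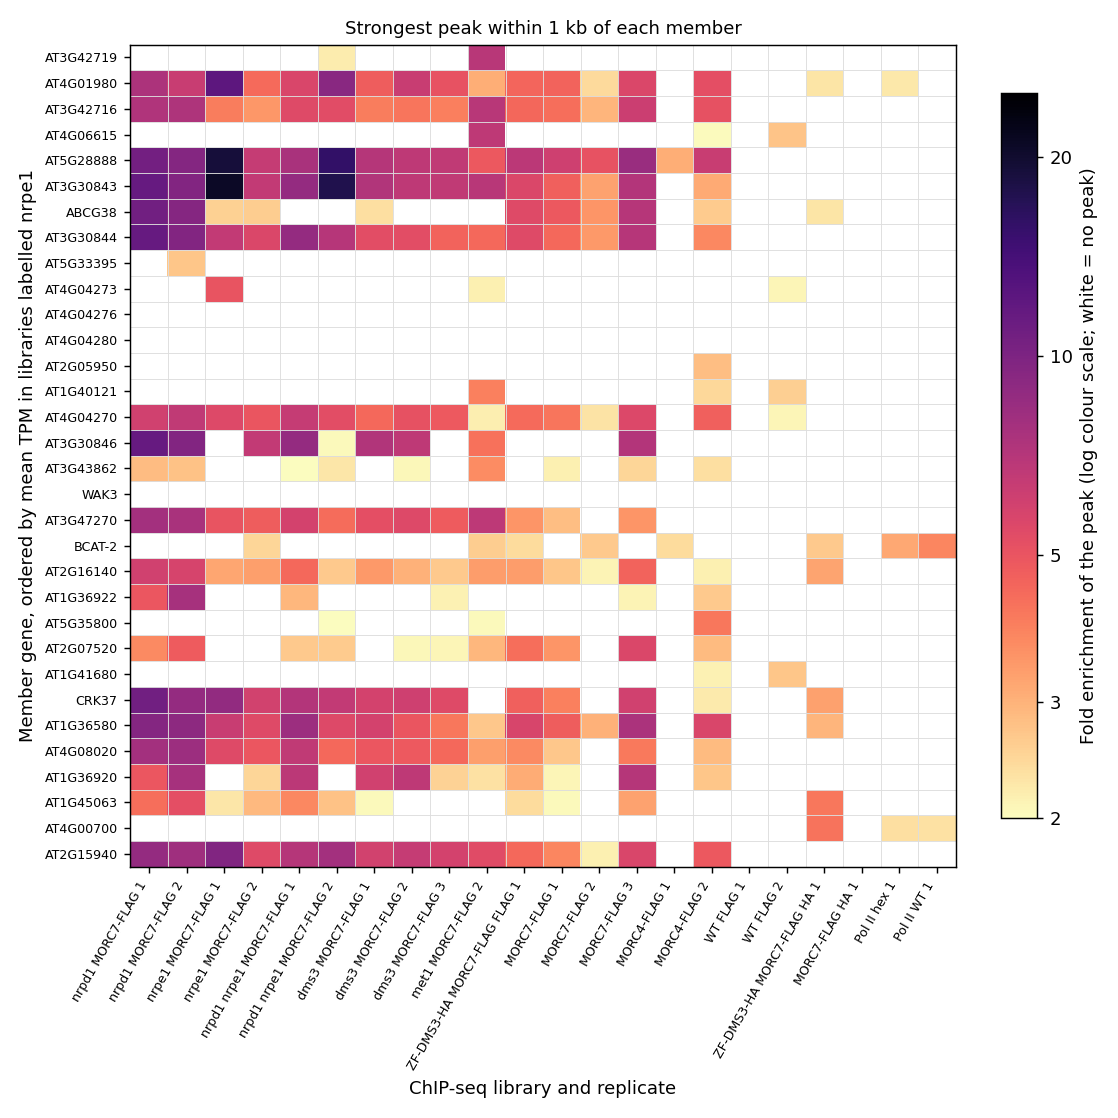
Fold enrichment of the strongest peak within 1 kb of each positioned member (rows, ordered by mean TPM in the libraries labelled nrpe1) in each ChIP-seq library (columns), on a log colour scale with white for no peak. 12 members have a MORC7 peak in all 9 RdDM mutant libraries, and 8 have none in any of them. The same counts were not made over all genes. AT4G04276, AT4G04280 and WAK3 have no peak in any library.

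In the single met1 library, from plants that lack the maintenance methyltransferase of CG sites, 21 members (65.6%) had a MORC7 peak within 1 kb, where 22.3% of all genes and 47.6% of pseudogenes silent in WT did. 15 of these had a MORC7 region and 6 did not. Among the 6 were repeat pseudogenes with wide met1 peaks. AT4G06615 met a peak of 5354 bp with a fold enrichment of 6.68, and AT1G40121 one of 4992 bp with 3.90. The met1 peak at AT4G06615 contained a FLAG peak of untagged WT replicate 2, and that near AT4G04273, which AT4G04270 shares, overlapped another. AT3G42719 and its neighbour AT3G42716 lay under a single met1 peak of 6795 bp with a fold enrichment of 6.94, where the MORC7 region of 1224 bp without a further mutation had ended 406 bp upstream of AT3G42716. CRK37, ABCG38 and AT1G45063 had a MORC7 region and no met1 peak. With 1 library there is no replicate check of these peaks.

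The MORC4-FLAG libraries differed from each other. Replicate 2 had a peak within 1 kb of 21 members (65.6%), where 19.2% of all genes had one, and replicate 1 of 2 members (6.25%), where 6.25% of all genes did. In replicate 2, 40.8% of pseudogenes silent in WT had one, as did 71.4% of genes silent in WT and on in all libraries labelled hex. Only AT5G28888 and BCAT-2 had a peak in replicate 1, and AT5G28888 alone in both, with fold enrichments of 3.08 and 6.33. In WT without a tag, 0 and 5 members had a FLAG peak in replicates 1 and 2 (15.6% in replicate 2), where 1.29% and 2.84% of all genes did. In replicate 2, 9.21% of pseudogenes silent in WT had one. The 5 members were AT4G06615, AT1G40121, AT1G41680, AT4G04270 and AT4G04273, with a strongest peak of 2.1 to 2.72 fold enrichment, and all 5 had another copy in the genome. At AT4G06615, AT1G40121 and AT1G41680 the MORC4 replicate 2 peak, with fold enrichments of 2.04, 2.45 and 2.14, overlapped this peak of plants without a tag. Removing MORC7 regions that met a peak of plants without a tag left the count of members with a region at 18.

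In plants with ZF-DMS3-HA, FLAG ChIP of MORC7 had a peak within 1 kb of 17 members (53.1%), where 32.1% of all genes and 33.9% of pseudogenes silent in WT did. HA ChIP of the fusion had one near 8 members (25%), where 50.9% of all genes did. Of genes silent in WT 34.7% had an HA peak, and of pseudogenes silent in WT 10.2%. HA ChIP of plants without the fusion had a peak near 0 members, where 0.0274% of all genes did. AT4G00700 had an HA peak with a fold enrichment of 4.19 and no MORC7 peak in any library.

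RNA polymerase II (Pol II) peaks near the members were found for 3 members at most. Pol II ChIP of hex had a peak within 1 kb of 3 members (9.38%), where 42.8% of all positioned genes, 16.1% of genes silent in WT and 2.56% of pseudogenes silent in WT did. Pol II ChIP of WT had one near 2 members (6.25%), where 44.4% of all positioned genes, 17.3% of genes silent in WT and 2.64% of pseudogenes silent in WT did. AT4G01980 was the 1 member with a Pol II peak in hex and not in WT. That peak lay 202 bp downstream of the pseudogene with a fold enrichment of 2.24. BCAT-2 and AT4G00700 had Pol II peaks in both genotypes. The strongest at BCAT-2 had a fold enrichment of 3.18 in hex and 3.79 in WT and lay upstream of the gene, and in WT a second one covered its 3′ end. At AT4G00700 the peaks lay 109 bp downstream in hex and 516 bp downstream in WT, with fold enrichments of 2.35 and 2.33. No member had a Pol II peak over the gene itself in hex, and 1 had one in WT, where 34.2% and 35.3% of all genes did. Each genotype has a single Pol II library, and whether the plants of these libraries match those of the RNA-seq label hex cannot be told from the files.

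The 250 bases before the annotated gene start met a MORC7 region in 8 members. The sequence is shown for 4 of them, so that it can be read beside its values, and the others were AT2G16140, AT2G07520, CRK37 and AT1G45063. The whole window lay in a region for AT5G28888 (chr5:10903016-10903265, reverse strand), AT4G01980 (chr4:864260-864509, reverse strand) and AT3G30843 (chr3:12608251-12608500, reverse strand), and 81 of the 250 bases for AT1G36920 (chr1:13982745-13982994, forward strand). Capitals mark TATAAA on either strand, which reads TTTATA where it is on the other strand. Sequences are 5′ to 3′ toward the gene, from the RefSeq TAIR10.1 genome.
AT5G28888: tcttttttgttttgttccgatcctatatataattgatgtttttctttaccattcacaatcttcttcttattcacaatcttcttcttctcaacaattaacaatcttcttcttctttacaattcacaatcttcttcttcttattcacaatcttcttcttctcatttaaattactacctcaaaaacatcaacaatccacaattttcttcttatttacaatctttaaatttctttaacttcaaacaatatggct
AT4G01980: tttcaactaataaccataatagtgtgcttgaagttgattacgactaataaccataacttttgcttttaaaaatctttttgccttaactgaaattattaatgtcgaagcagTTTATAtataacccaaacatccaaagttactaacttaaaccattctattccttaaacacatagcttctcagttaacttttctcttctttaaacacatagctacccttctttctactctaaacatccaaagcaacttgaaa
AT3G30843: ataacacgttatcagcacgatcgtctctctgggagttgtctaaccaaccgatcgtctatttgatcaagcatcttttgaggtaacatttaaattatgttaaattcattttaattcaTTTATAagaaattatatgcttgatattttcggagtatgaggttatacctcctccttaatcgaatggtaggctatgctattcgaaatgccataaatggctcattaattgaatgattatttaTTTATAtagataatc
AT1G36920: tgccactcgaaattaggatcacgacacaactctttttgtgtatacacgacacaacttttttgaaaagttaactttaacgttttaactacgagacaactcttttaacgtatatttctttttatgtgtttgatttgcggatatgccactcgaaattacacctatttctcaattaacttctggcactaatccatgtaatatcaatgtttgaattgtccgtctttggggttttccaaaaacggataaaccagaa

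In these windows CG, the site that MET1 methylates, occurred once in AT5G28888, 2 times in AT4G01980, 8 times in AT3G30843 and 10 times in AT1G36920. Over the 32 positioned members the window held a median of 4 CG (range 1 to 18) and a GC content of 34%, against 5 CG and 31.6% for all genes and 6 CG and 35.6% for pseudogenes silent in WT. TATAAA on either strand was present in 10 members (31.2%), against 45.8% of all genes and 32.6% of pseudogenes silent in WT. CCAAT on either strand was present in 13 members (40.6%), against 45.2% of all genes, and CACGTG, the same on both strands, in 1 member, AT4G00700 (3.12%), against 5.83% of all genes. None of these motifs was in the windows of AT5G28888 or AT1G36920. Pseudogene starts in the annotation need not be sites where transcription begins, and a match or its absence is a description of these letters.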

How the data were processed

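RNA-seq, per the study's methods from a stranded mRNA kit, was deposited by the authors as TPM per gene and library. RSEM 1.3.1 is listed in the submitters' processing notes, and whether it made these files or used strand is not given in the sources used here. One deposited table (nrpe1 replicate 2) repeats its block under a second header labelled hex, with 0 differing genes, and the first block was used. For ChIP-seq the authors aligned reads to TAIR10 with Bowtie2 2.1.0 and called peaks with MACS2 2.1.1. The deposited lists give a fold enrichment (a ratio over background) and the −log10 of the p-value and q-value per peak, 1 list per library. Read totals were not used, so depth is unknown.

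Peaks on nuclear chromosomes were kept above 2-fold enrichment with q under 0.01. One limma 3.58.1 model (R 4.3.3, intensity trend) took log2(TPM + 1) of all 9 libraries, with Benjamini-Hochberg adjustment over all genes. Copies were searched with blastn 2.17.0+. Sequences and positions are from RefSeq TAIR10.1. Scripts were tested on simulated data. The members, gene lists and tests were chosen with earlier results of these data known. Members were named by rank of TPM in the libraries labelled nrpe1 or hex, by class, MORC7 region, Pol II peak, position in a run, zeros and nearness to a limit, and CRK37, AT1G45063, AT2G07520 and genes of repeat families were named after their values were seen. Alternatives were other limits, pseudocounts, filters, normalization, a replicate block, peak thresholds, windows and each library left out. Samples without a processed file were not analysed here.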

Additional observations from a re-analysis of the deposited data

How the results depend on the processing

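Genes called in the libraries labelled nrpe1 against WT numbered 688 (404 higher, 58.7%), 58 with no filter on low TPM and 107 with only the 6 libraries compared, and quantile normalization gave 606 with 45.9% higher. Leaving out 1 library gave 32 to 1606 calls for nrpe1 and 32 to 64 for hex, against 56. The replicate block gave 821 and 62. The labels do not say that numbers pair libraries. Only 3 of 9 same-number pairs of libraries deviated together with r over 0.1 (range -0.35 to 0.60), and 4 of 9 libraries correlated best with their own number. The rule gave 33 genes, 11 with a minimum of 1 TPM in the libraries labelled nrpe1, and 32 to 85 with 1 library left out. Leaving out a library labelled nrpe1 or WT could only keep or raise this number, and leaving out one labelled hex only keep or lower it. Members with a MORC7 region numbered 18, 11 by overlap with the gene itself and 10 to 18 with 1 library left out and both others required. Members with a Pol II peak in hex numbered 3, but 1 under a stricter peak threshold, 5 with all deposited peaks and 0 by overlap with the gene. In WT they numbered 2, with 1 under that threshold and 1 by overlap with the gene. Of 168 log2 differences of MORC1, MORC2, MORC4, MORC6, MORC7 and ROS1 under alternatives, 0 reversed and 5, all of MORC7 in nrpe1 against WT, lost their call. The cause of these changes was not tested. Depth is unknown and limits every value listed at 0.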
